A study of Homo sapiens with 24 samples.

Results

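The persister change of 2 KYSE450 lines was compared gene by gene. Of 61251 genes in the table, 13729 had a mean of 1 FPKM or more (fragments per kilobase of gene, scaled to library size) in at least 1 of 4 groups and were tested. The persister change of a line is its drug tolerant persister (DTP) libraries minus the libraries of the line itself, in log2(FPKM + 1). The difference between the lines is the chemoresistant change minus the parental change. Changes on this scale understate those of genes at a low level. A positive difference means that the gene moved further up, or less far down, in the chemoresistant line. Genes were then sorted into persister changes that the lines shared, that one line showed, or that ran in opposite directions.

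KYSE450 is an established line of oesophageal squamous cell carcinoma. The 24 RNA-seq libraries form 4 groups of 6: parental cells, parental-DTP cells, chemoresistant cells (titled KYSE450DDP) and chemoresistant-DTP cells. All were labelled wild type, were grown in RPMI-1640 with fetal bovine serum and carry the entry that no treatment was given, so neither the drug behind the persister state nor its dose and time is known here. Separate cultures are not stated for the 6 libraries of any group, and the labels do not say whether the chemoresistant line is 1 clone. The p-values measure the spread between these libraries, which may be technical.

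Drug tolerant persisters are the few tumour cells that live through a drug in a slow or non-dividing state without a heritable resistance mutation. Several stress programmes are known to mark such states. ATF4 is the transcription factor that raises amino acid supply and stress genes when translation initiation is held back, HSF1 drives the cytosolic chaperones when proteins misfold, and interferon signalling through JAK kinases switches on antiviral genes at a DNA element called the interferon-stimulated response element.

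The promoters shown here belong to genes that carry the main patterns and that hold a searched motif, written in capitals. Other named genes with the same patterns held none of these motifs or a different one. They were taken from RefSeq (GRCh38.p14), which gave a promoter for 22 of the 28 genes named for the classes. Each is the 250 bases before the start site, 5′ to 3′ on the gene's own strand. IFI6 (chr1:27672193-27672442, minus strand) and IFIT3 (chr10:89327747-89327996, plus strand) fell in the chemoresistant persisters. SOCS1 (chr16:11256205-11256454, minus strand) moved in opposite directions. Capitals mark the interferon-stimulated response element core, GAAA and GAAA spaced by 2 bases, on either strand, and in IFIT3 also a TATA box, TATAAA read on the other strand.
IFI6: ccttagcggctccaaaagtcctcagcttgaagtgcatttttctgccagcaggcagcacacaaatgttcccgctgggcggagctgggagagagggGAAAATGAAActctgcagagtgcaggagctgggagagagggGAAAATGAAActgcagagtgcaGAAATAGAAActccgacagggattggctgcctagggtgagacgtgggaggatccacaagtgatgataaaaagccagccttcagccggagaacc
IFIT3: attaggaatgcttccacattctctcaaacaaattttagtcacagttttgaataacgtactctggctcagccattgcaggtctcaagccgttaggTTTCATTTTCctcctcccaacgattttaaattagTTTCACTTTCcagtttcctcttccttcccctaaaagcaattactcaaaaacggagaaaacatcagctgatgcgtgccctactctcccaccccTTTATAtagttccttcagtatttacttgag
SOCS1: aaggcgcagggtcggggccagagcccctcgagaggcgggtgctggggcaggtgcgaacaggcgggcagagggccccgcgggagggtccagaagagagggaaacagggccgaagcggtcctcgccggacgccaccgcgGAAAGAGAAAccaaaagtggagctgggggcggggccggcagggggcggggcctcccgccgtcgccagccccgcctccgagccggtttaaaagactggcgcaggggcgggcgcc
HSPA8 (chr11:123062137-123062386, minus strand) fell in the parental persisters. Its capitals mark 2 heat shock elements, searched as GAA, TTC and GAA or as TTC, GAA and TTC, each spaced by 2 bases. AREG (chr4:74444886-74445135, plus strand) and CXCL8 (chr4:73740319-73740568, plus strand) rose in both persisters, and their capitals mark the TATA box.
HSPA8: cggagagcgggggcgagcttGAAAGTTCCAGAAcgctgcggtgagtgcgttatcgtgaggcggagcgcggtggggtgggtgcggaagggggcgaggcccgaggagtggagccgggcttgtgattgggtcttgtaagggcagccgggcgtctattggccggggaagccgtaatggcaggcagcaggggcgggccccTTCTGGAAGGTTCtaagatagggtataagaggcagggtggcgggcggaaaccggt
AREG: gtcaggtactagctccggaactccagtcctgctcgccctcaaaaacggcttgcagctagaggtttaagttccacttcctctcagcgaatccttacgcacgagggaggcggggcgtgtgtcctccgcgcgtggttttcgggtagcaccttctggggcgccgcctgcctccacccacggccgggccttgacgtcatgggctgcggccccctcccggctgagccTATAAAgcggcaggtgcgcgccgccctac
CXCL8: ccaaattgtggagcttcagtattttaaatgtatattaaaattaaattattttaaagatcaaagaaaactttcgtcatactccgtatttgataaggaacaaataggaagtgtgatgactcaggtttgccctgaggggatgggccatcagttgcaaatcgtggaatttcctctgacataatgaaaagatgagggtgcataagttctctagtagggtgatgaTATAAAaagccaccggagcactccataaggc
The first base of a core lay 156, 115 and 93 bases before the start site of IFI6, 156 and 122 bases before that of IFIT3 and 113 bases before that of SOCS1. The elements of HSPA8 began 230 and 55 bases before its start. The TATA boxes of AREG and CXCL8 began 29 and 31 bases before theirs. These are matches of letters in a window, not measured binding. The promoter of UBE2L6 held no interferon-stimulated core. Those of HSPA1A and HSPA1B held no heat shock element as searched, and that of ERRFI1 no TATA box.

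The libraries held 14947379 to 37989457 reads as recovered from the FPKM steps, so a value of 0 allows up to 0.079 to 0.201 CPM (3 reads in a library, as counts scaled to library size; counting error only). Within a group, libraries correlated at r = 0.9746 to 0.9963. Parental-DTP libraries 5 and 6 and chemoresistant-DTP library 2 stood apart from their groups, and where a call or an overlap described for a gene turned on them, it is given without them as well. Parental libraries 5 and 6 also differed from the rest of their group. Their deviation from the group followed GC content with Spearman rho of -0.54 and -0.559, against 0.183 to 0.488 in the other parental libraries. HSPA1A, for example, read 315 and 301 FPKM in them, against 377 to 419. These 2 libraries were left out singly, not together. All 10 markers of squamous epithelium were tested and summed to 2580 to 5960 FPKM per library. Markers of other cells stayed low: the 7 fibroblast markers summed to at most 19.6 FPKM, the 6 leukocyte markers, of which 2 were at 0 in every library, to at most 2.61 FPKM, the endothelial markers to at most 1.22 FPKM, the glandular markers to at most 3.78 FPKM and the erythroid markers to at most 1.34 FPKM. Fewer cells of a kind and less RNA per cell cannot be told apart in these bulk libraries.

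The lines differed in their persister change at 8764 of 13729 genes (63.8%; limma on log2(FPKM + 1), Benjamini-Hochberg adjusted p below 0.05). The chemoresistant change was the higher of the pair at 2812 genes (20.5%) and the lower at 5952 (43.4%). A difference of 2-fold or more, 1 unit on the log2 scale, was called at 1241 genes (9.04%), 292 of them higher (2.13%) and 949 lower (6.91%). ORC6 lay just inside that limit at 1.0001 and a locus outside GENCODE just outside at 0.9998. The parental change passed its own test at 8994 genes (65.5%), upward at 6283 (45.8%) and downward at 2711 (19.7%), with 470 past 2-fold (3.42%), 379 up (2.76%) and 91 down (0.663%). The chemoresistant change passed at 6586 genes (48.0%), upward at 2820 (20.5%) and downward at 3766 (27.4%), with 190 past 2-fold (1.38%), 49 up (0.357%) and 141 down (1.03%).

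The direction of these counts moved with the scaling. The median change over genes was 0.14 in the parental line and -0.02 in the chemoresistant line, which gave a median difference of -0.17. After relative log expression scaling, which sets the median gene of each library to a common level, the medians were 0.0, -0.01 and -0.01. The called genes with a higher chemoresistant change were 32.1% of all called on the deposited scale, 48.2% after that scaling and 47.4% after the trend of each library with GC content was removed. Gene and list values are therefore to be read against a median difference of -0.17.

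Across the 13729 genes the parental change was the wider, with an SD of 0.43 against 0.33, and spanned -3.42 to 3.71 against -3.5 to 2.05. The 2 changes share no library. Their correlation across genes, which are not independent replicates, was weakly negative (Pearson r = -0.15, Spearman rho = -0.22). By the tests alone, 1445 genes (10.5%) changed in the same direction in both lines, 3261 (23.8%) in opposite directions, 3326 (24.2%) in the parental line with a called difference from the chemoresistant line, and 1351 (9.84%) likewise in the chemoresistant line. Of the shared genes, 832 had no called difference in size and 613 did. A further 2855 genes (20.8%) passed in neither line, 213 of them with a called difference, and 1491 (10.9%) passed in 1 line with no called difference.

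At 2-fold, 15 genes rose in both lines and none fell in both by limma, nor did any at an unadjusted p below 0.05; voom on recovered reads gave 3 such falls and a pseudocount of 0.1 gave 2. A gene is called parental-only here when its parental change passed at 2-fold, its chemoresistant change did not pass or stayed under 0.5, and the difference passed at 2-fold; chemoresistant-only is the mirror image. Opposite changes passed in both lines, were 0.5 or more each way and differed by 2-fold. By these rules 247 genes were parental-only rises, 62 parental-only falls, 18 chemoresistant-only rises and 99 chemoresistant-only falls, while 192 rose in parental and fell in chemoresistant persisters and 83 did the reverse. Relative log expression scaling gave 148 parental-only rises and 127 falls, and 134 opposite changes with a parental rise and 140 with a parental fall. It left the shared rises at 15 and the chemoresistant-only falls at 96. Of the 99 chemoresistant-only falls, 51 had a parental mean under 1 FPKM, from which log2(FPKM + 1) cannot fall by 1 unit, so those genes could not have been called shared falls. In 43 of the 99 both parental groups were under 1 FPKM, and these passed the filter on level through the chemoresistant line alone. Of the 62 parental-only falls, 9 had a chemoresistant mean under 1 FPKM, with the same limit.

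**Figure D1:**
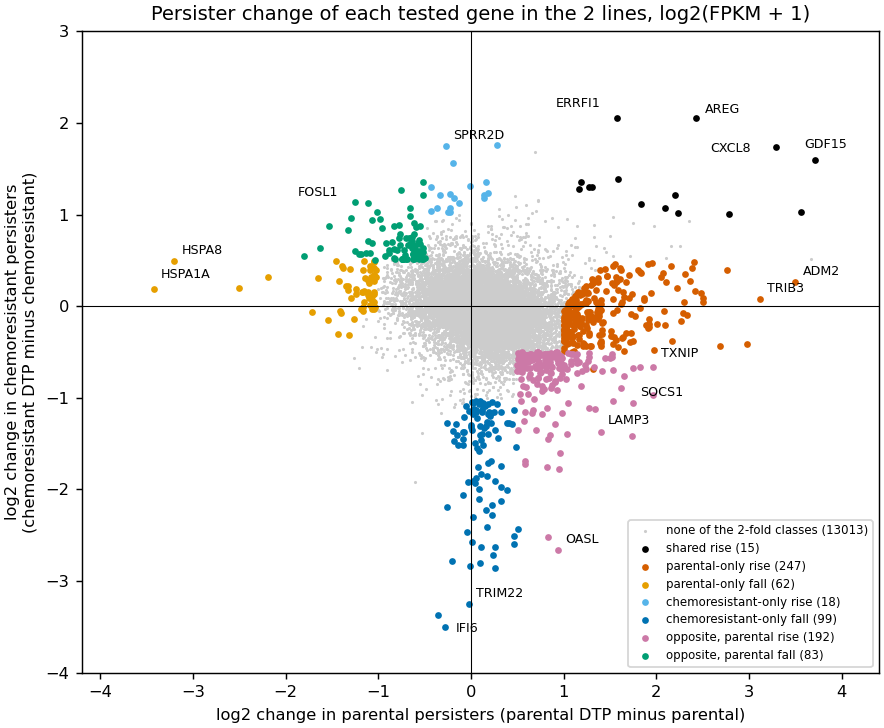
Each dot is 1 of the 13729 tested genes. The x axis is the log2 change of parental persisters and the y axis that of chemoresistant persisters, both on log2(FPKM + 1), and colours mark the 2-fold classes. The 15 shared rises sit at upper right, interferon-stimulated genes such as IFI6 and TRIM22 hang straight down near a parental change of 0, and HSPA1A and HSPA8 lie far left near a chemoresistant change of 0 to 0.5.

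**Figure D2:**
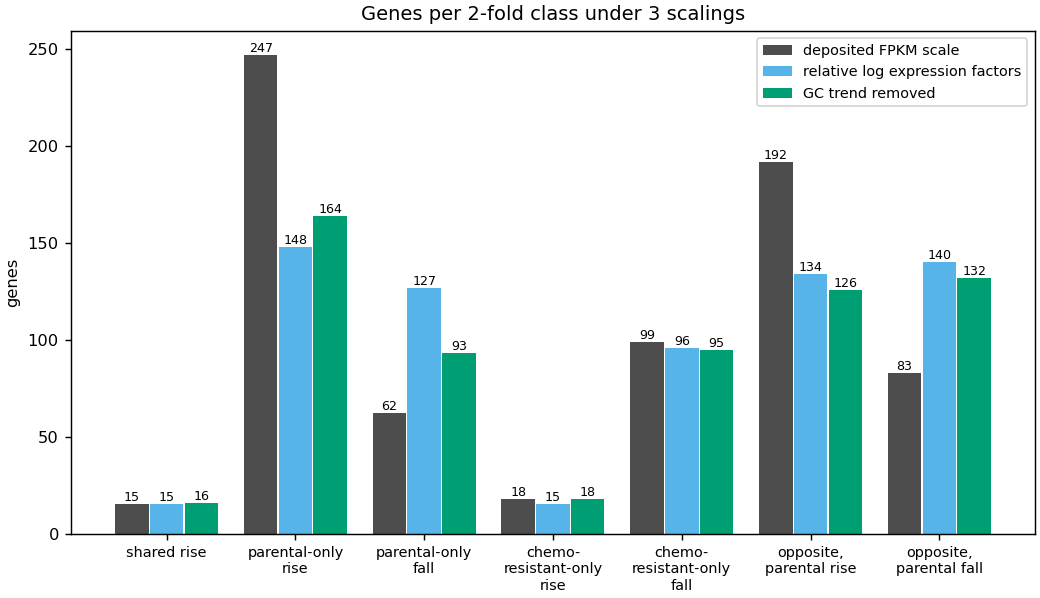
Bars give the number of genes in each 2-fold class (y axis) on the deposited FPKM scale, after relative log expression factors and after removal of the GC trend. Shared rises stayed at 15, 15 and 16 and chemoresistant-only falls at 99, 96 and 95, whereas parental-only rises went from 247 to 148 and 164.

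The 15 genes that rose 2-fold in both lines were mostly secreted growth factors, cytokines and stress genes: AREG, EREG and HBEGF (EGF receptor ligands), CXCL8 and LIF (a chemokine and a cytokine), GDF15 (the stress hormone that acts through GFRAL), ATF3, PPP1R15A and CTH (stress transcription factor, eIF2alpha phosphatase subunit and cystathionine gamma-lyase), ERRFI1 (an EGF receptor inhibitor), RAET1L, TNFRSF9, MT1F, LURAP1L and the antisense RNA FLJ46906. At 9 of the 15 the rise was smaller in the chemoresistant line, at ERRFI1 it was larger, and at the other 5 no difference was called. For HBEGF the interval of the difference ran from -0.13 to 0.19, for LURAP1L from -0.2 to 0.18, for TNFRSF9 from -0.06 to 0.28, for MT1F from -0.09 to 0.44 and for FLJ46906 from -0.42 to 0.02 (95%, 20 residual degrees of freedom). MT1F shares sequence with other metallothionein genes and FLJ46906 may share reads with a gene on the other strand, so their counts are less certain.

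AREG, amphiregulin, measured 21.2 to 26.7 FPKM in parental cells (median 23.3) and 118 to 153 in their persisters (median 127). In the chemoresistant line it went from 10.9 to 11.5 (median 11.2) up to 44.7 to 61.0 (median 48.2). Neither pair of groups overlapped, and the persisters of the chemoresistant line stayed below those of the parental line. The changes were 2.43 and 2.05, and their difference of -0.38 ± 0.09 (SE) had an adjusted p of 0.00127; after relative log expression scaling it was -0.17 with adjusted p = 0.184. ERRFI1, the feedback inhibitor of the receptor that AREG binds, went from 11.3 to 14 (median 12) up to 33.5 to 46.7 (median 39.6) FPKM in the parental line. Chemoresistant levels went from 13.5 to 18.6 (median 15.9) up to 58.6 to 76.9 (median 71.3). The groups were apart in both lines, and the chemoresistant rise was the larger by 0.47 ± 0.12 (adjusted p = 0.00106).

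GDF15 lay at 0.431 to 0.742 FPKM in parental cells (median 0.61) and at 15.9 to 23.9 in parental persisters (median 20.4). Chemoresistant cells already held 21.7 to 26.8 (median 24.9), and their persisters 63.9 to 95.6 (median 75.5). The lowest chemoresistant persister library was above every library of the other groups, while parental persisters overlapped the chemoresistant cells. The changes were 3.71 and 1.59, a difference of -2.12 ± 0.12 (adjusted p = 3.84e-13). CXCL8, the neutrophil chemokine interleukin-8, also rose in both, from 3.67 to 6.29 (median 4.22) up to 43.1 to 62.5 (median 55.4) FPKM in the parental line. Its chemoresistant levels went from 17.4 to 24.8 (median 23.6) up to 67.8 to 84.6 (median 75.7). Its difference was -1.56 ± 0.16 (adjusted p = 9.94e-09).

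Parental persisters raised a large set of ATF4 genes, most of them by more than chemoresistant persisters did. The summed level of the list was already higher in chemoresistant than in parental cells, though below that of parental persisters. Of the 43 tested ATF4 targets and regulators, 41 rose and 1 fell in the parental line, against 45.8% and 19.7% of all tested genes. The median change was 1.4 against 0.14 over all genes. In the chemoresistant line 26 rose and 2 fell, against 20.5% and 27.4% of all tested genes, with a median of 0.17 against -0.02. The difference was lower at 39 and higher at 1 (median -1.22 against -0.17), against 43.4% and 20.5% of all tested genes. In kind, 27 changes were shared in direction, 14 were parental-only, 1 was opposite and none was chemoresistant-only. Summed over the list, levels were 2210 to 2500 FPKM in parental cells, 3740 to 4220 in parental persisters, 3250 to 3590 in chemoresistant cells and 3700 to 4050 in chemoresistant persisters. The sums of the 2 persister groups overlapped.

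TRIB3, a pseudokinase that feeds back on ATF4, is an example of a rise called in the parental line alone. It rose from 7.48 to 8.34 FPKM (median 7.8) in parental cells to 71.3 to 82.1 (median 76.1) in their persisters. Chemoresistant cells measured 36.9 to 43.2 (median 41.6) and chemoresistant persisters 40.4 to 48.3 (median 42.4). The parental groups were far apart and the chemoresistant groups overlapped. The changes were 3.12 ± 0.05 and 0.08 ± 0.05 (adjusted p = 0.173), with a difference of -3.04 ± 0.07 (adjusted p = 1.28e-20). ADM2, a peptide hormone of the adrenomedullin family, went from 0.312 to 0.469 (median 0.348) up to 13.5 to 15.4 (median 14.5) FPKM in the parental line. Chemoresistant levels of ADM2 went from 14.2 to 16.9 (median 15.1) to 17.5 to 20.2 (median 18.3), a small rise without overlap. The difference for ADM2 was -3.24 ± 0.07 (adjusted p = 3.38e-21). CHAC1, which degrades glutathione, and CTH, which makes cysteine, differed by -3.16 and -2.54, with a rise in both lines.

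TXNIP and ABCA13 had, with ADM2 and TRIB3, the 4 largest differences among protein-coding parental-only rises with at least 5 FPKM in a group. TXNIP, an inhibitor of thioredoxin and of glucose uptake, went from 44.4 to 58.8 (median 49.8) up to 217 to 260 (median 231) FPKM in the parental line. It fell from 281 to 339 (median 317) to 232 to 250 (median 235) in the chemoresistant line. The chemoresistant fall of -0.38 is within the 0.5 limit of the class, and the persisters of both lines overlapped in level. ABCA13, an ABC family transporter, went from 3.73 to 6.53 (median 4.36) up to 19.4 to 21.9 (median 21.6) FPKM. Its chemoresistant groups, 15.6 to 19.8 (median 18.5) and 6.0 to 15.7 (median 14.5), overlapped by a narrow margin, and chemoresistant-DTP library 2 was the low one. The differences were -2.55 ± 0.09 for TXNIP and -2.46 ± 0.21 for ABCA13 (adjusted p = 4.07e-17 and 4.51e-10), and -2.27 for ABCA13 without that library. The chemokine gene CXCL1 then differed by more, at -2.5, so the place of ABCA13 among the 4 rested on that library.

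NF-kB cytokines and feedback genes showed the same asymmetry. In the parental line 16 of 19 tested members rose and 1 fell (median 1.27), and in the chemoresistant line 9 rose and 2 fell (median 0.18). Over all tested genes 45.8% rose and 19.7% fell in the parental line, and 20.5% rose and 27.4% fell in the chemoresistant line. The difference was lower at 14 and higher at 3 (median -0.98), against 43.4% and 20.5% of all tested genes. CXCL1, a chemokine, rose from 14.4 to 16.9 (median 15) to 80.7 to 97.5 (median 93.6) FPKM in the parental line. It measured 32.6 to 39.4 (median 35.3) and 34.7 to 43.4 (median 35.9) in chemoresistant cells and persisters, which overlapped. PTGS2, the inducible cyclooxygenase, differed by -2.36 and the chemokine CCL2 by -2.13. The members with a higher difference were the interleukins IL1A, IL1B and IL32. They were singled out after their values were seen, and their changes were 0.19, 0.01 and -0.26 in the parental line and 0.81, 0.67 and 0.23 in the chemoresistant line.

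**Figure D3:**
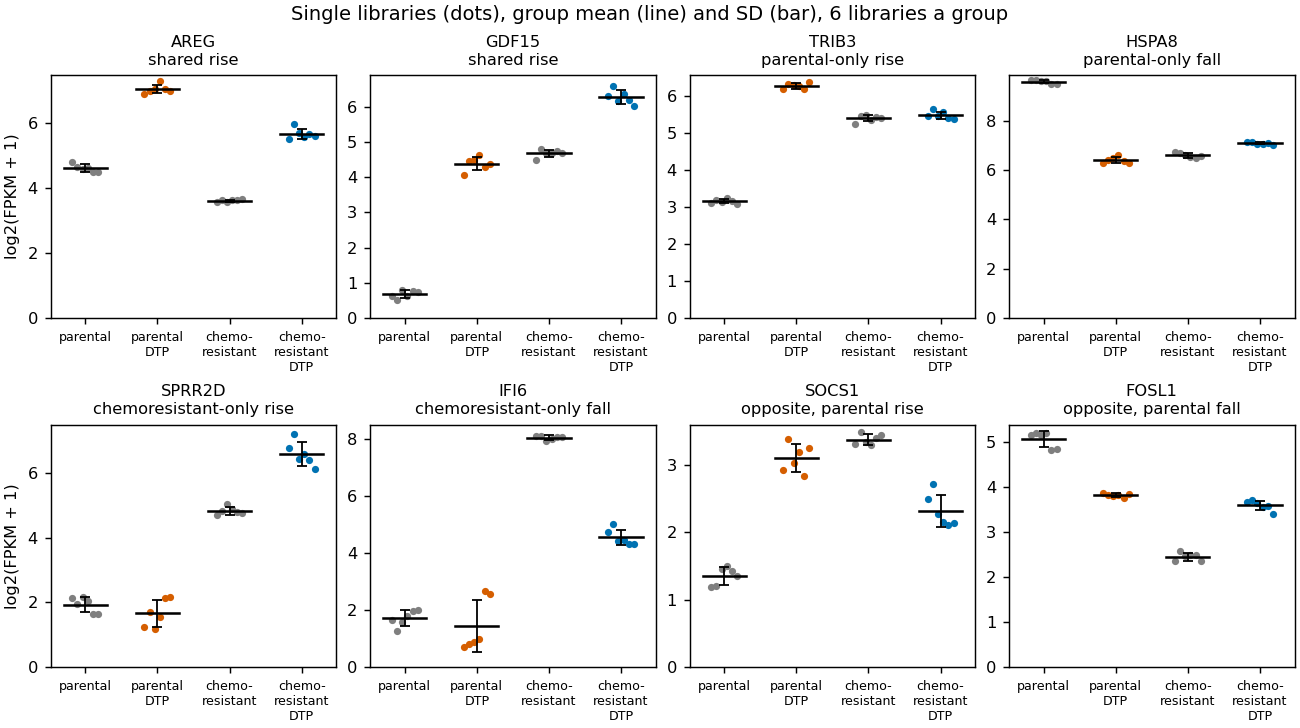
Dots are single libraries on a log2(FPKM + 1) axis, lines are group means and bars are SD over 6 libraries, for 1 or 2 genes of each 2-fold class. AREG and GDF15 step up in both lines, TRIB3 and HSPA8 move mainly in the parental line, IFI6 and SPRR2D mainly in the chemoresistant line, and SOCS1 and FOSL1 move in opposite directions.

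Cytosolic chaperones ran the other way. Of 25 tested heat shock genes, 21 fell and none rose in the parental persisters (median -0.59), whereas 20 rose and none fell in the chemoresistant persisters (median 0.28). Over all tested genes 19.7% fell and 45.8% rose in the parental line, and 20.5% rose and 27.4% fell in the chemoresistant line. The difference was higher at 24, against 20.5% of all tested genes, and lower at none, against 43.4%. Its median was 0.96 against -0.17 over all genes. Of the 25, 17 passed in opposite directions, against 23.8% of all tested genes. The parental cells were the group apart: summed levels were 4830 to 5110 FPKM there, 2250 to 2350 in their persisters, 2060 to 2300 in chemoresistant cells and 2500 to 2950 in chemoresistant persisters.

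HSPA8, the constitutive HSP70, fell from 727 to 814 FPKM (median 799) to 76.7 to 96.9 (median 82.7) in the parental line. It rose from 89.0 to 107 (median 95.4) to 131 to 143 (median 136) in the chemoresistant line. Neither pair overlapped, and parental persisters overlapped the chemoresistant cells. The changes were -3.2 ± 0.05 and 0.49 ± 0.05, and the difference was 3.69 ± 0.08 (adjusted p = 3.38e-21). At 0.49 the chemoresistant rise lay just under the limit of the opposite class, and after relative log expression scaling, at 0.51, it lay over it.

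HSPA1A, a stress-inducible HSP70, went from 301 to 419 (median 382) to 24.8 to 39.6 (median 35.4) FPKM in the parental line. Chemoresistant cells and persisters overlapped at 52.2 to 72.3 (median 58.1) and 63.7 to 75.5 (median 66.7). The changes were -3.42 and 0.19 (adjusted p = 0.141), with a difference of 3.61 ± 0.15 (adjusted p = 8.82e-16). HSPA1B, its near-identical neighbour, differed by 2.7, though reads of this pair can be split between the copies. DNAJA1, an HSP40 partner of HSPA8, fell from 173 to 198 (median 178) to 34.9 to 48.7 (median 37.8) FPKM and rose from 37.7 to 49.1 (median 40.2) to 49.2 to 59.3 (median 51.3). Its difference was 2.51 ± 0.1 (adjusted p = 2.72e-16). HSPH1, STIP1, CHORDC1 and HSP90AA1, chaperones and co-chaperones chosen after their values were seen, fell by 1.0, 0.88, 1.33 and 1.63 in the parental persisters and measured log2 changes of 0.19, 0.61, 0.83 and 0.63 in the chemoresistant ones.

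Endoplasmic reticulum chaperones did not follow. In the parental line 8 of 19 rose and 4 fell, against 45.8% and 19.7% of all tested genes. The parental median of 0.08 turned to -0.11 after relative log expression scaling. In the chemoresistant line 12 rose and none fell (median 0.20). The difference was higher at 7 and lower at 7, against 20.5% and 43.4% of all tested genes. Its median of 0.11 became 0.31 after that scaling. HERPUD1 and XBP1, genes of the unfolded protein response, rose in both lines and by less in the chemoresistant line, with differences of -2.02 and -1.18. CALR, the luminal chaperone calreticulin, fell by 0.63 in the parental persisters and had a change of 0.08 in the chemoresistant ones (adjusted p = 0.188).

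Mitosis and DNA replication genes fell mainly in parental persisters. Of 29 tested mitosis genes, 25 fell and 1 rose in the parental line (median -0.54), while 12 rose and 2 fell in the chemoresistant line (median 0.12). The difference was higher at 24 and lower at 1 (median 0.65). Of 36 DNA replication genes, 30 fell and 2 rose in the parental line (median -0.44), while 14 rose and 8 fell in the chemoresistant line (median 0.07). The difference was higher at 27 and lower at 4 (median 0.50). Over all tested genes 19.7% fell and 45.8% rose in the parental line, and 20.5% rose and 27.4% fell in the chemoresistant line. The difference was higher at 20.5% and lower at 43.4% of all tested genes. The 8 DNA replication falls in the chemoresistant line were thus near the share of all genes. PLK1, a mitotic kinase, went from 63.1 to 70.9 (median 69.2) to 24.7 to 33.3 (median 31.5) FPKM, and lay at 27.1 to 32.3 (median 29.6) and 29.4 to 31.7 (median 30.7) in the chemoresistant groups. MCM4, a subunit of the replicative helicase, went from 72.7 to 76.7 (median 75) to 28.4 to 33.1 (median 31.3) and lay at 27.4 to 30.8 (median 29.1) and 27.8 to 34 (median 32.5). For both genes the parental cells were the high group and the other 3 groups overlapped in level, although without chemoresistant-DTP library 2 the chemoresistant persisters had MCM4 at 31.5 to 34, above the chemoresistant cells (change 0.16, adjusted p = 0.000474). The differences were 1.2 ± 0.08 for PLK1 (adjusted p = 9.45e-12) and 1.37 ± 0.06 for MCM4 (adjusted p = 3.39e-15). No measure of cell division accompanies these libraries.

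Genes of the actin cytoskeleton and targets of the serum response factor SRF fell at 16 of 24 and rose at 1 in the parental persisters (median -0.49). Of all tested genes 19.7% fell and 45.8% rose there. In the chemoresistant persisters 8 rose and 6 fell (median 0.12), against 20.5% and 27.4% of all tested genes, so the falls were near that share. The difference was higher at 15 and lower at 2 (median 0.59), against 20.5% and 43.4% of all tested genes. ACTB, beta-actin, fell by 1.71 in the parental line and had a change of -0.06 in the chemoresistant line (adjusted p = 0.615), so it did not hold a constant level across these groups. TUBB, a beta-tubulin, fell by 1.11 in the parental line and rose by 0.29 in the chemoresistant line.

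Interferon-stimulated genes fell in the chemoresistant persisters. All 31 tested effectors passed downward there, against 27.4% of all tested genes, with a median of -2.28 against -0.02 over all genes. In the parental persisters 9 rose and 1 fell, against 45.8% and 19.7% of all tested genes, so both counts were below those shares. The parental median of 0.09 became 0.04 after relative log expression scaling. The difference was lower at all 31 (median -2.51), against 43.4% of all tested genes. For 12 of the 31 the parental mean was under 1 FPKM, which limits how far a fall could show there. For 10 of the 31 both parental groups were under 1 FPKM. These 10 passed the filter on level through the chemoresistant line alone, where they are high. The tests put 21 in the chemoresistant-only class, 9 in the opposite class and 1, IFITM3, among the shared falls. Summed over the 33 members of the list, levels were 201 to 227 FPKM in parental cells and 184 to 269 in parental persisters. Chemoresistant cells held 3660 to 4210 and chemoresistant persisters 719 to 973, so these persisters lay between the chemoresistant cells and both parental groups without overlap. Without parental-DTP libraries 5 and 6, 6 effectors rose and 5 fell in the parental line (median -0.01).

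IFI6, a mitochondrial interferon-induced protein, measured 242 to 276 FPKM (median 269) in chemoresistant cells and 19.0 to 31.3 (median 20.7) in their persisters. In parental cells it lay at 1.41 to 3.02 (median 2.28). Parental persisters 1 to 4 lay at 0.633 to 0.984, below every parental library, and libraries 5 and 6 at 5.37 and 4.86, above every parental library. The chemoresistant groups were far apart. The changes were -0.28 ± 0.27 (adjusted p = 0.369) and -3.5 ± 0.27, with a difference of -3.22 ± 0.38 (adjusted p = 7.94e-08). Without those 2 libraries the parental change was -0.87 (adjusted p = 4.67e-06) and the difference -2.63, and IFI6 no longer met the rule of the chemoresistant-only class.

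IFIT3, of the IFIT family of antiviral proteins, went from 39.2 to 50.7 FPKM (median 45.8) in chemoresistant cells to 4.89 to 6.32 (median 5.24) in their persisters. Parental cells held 0.752 to 1.2 (median 0.844) and parental persisters 1.01 to 1.84 (median 1.13). The difference was -3.12 ± 0.12 (adjusted p = 2.96e-16). UBE2L6, the conjugating enzyme of the ubiquitin-like ISG15, went from 166 to 198 (median 179) to 25.1 to 37.6 (median 27.8) against 2.18 to 3.14 (median 2.69) and 2.9 to 5.97 (median 3.69) in the parental line. TRIM22, an antiviral ubiquitin ligase, went from 12.1 to 16.7 (median 13.8) to 0.438 to 0.843 (median 0.529), and was close to 0 in the parental line, at no more than 0.15 FPKM in parental cells and 0.219 in their persisters. For all 3 genes the chemoresistant persisters lay below the chemoresistant cells and above every library of the parental line. The differences were -3.06 ± 0.17 for UBE2L6 and -3.23 ± 0.1 for TRIM22 (adjusted p = 1.77e-13 and 3.68e-18).

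The upstream and downstream members of the pathway moved likewise. Of 16 tested interferon sensors and transcription factors, 13 fell and none rose in the chemoresistant persisters (median -1.01), against 9 up and 2 down in the parental ones (median 0.16, or 0.08 after relative log expression scaling). Over all tested genes 27.4% fell and 20.5% rose in the chemoresistant line, and 45.8% rose and 19.7% fell in the parental line. The difference was lower at 15 and higher at 1 (median -1.15), against 43.4% and 20.5% of all tested genes. IRF7, the amplifying transcription factor, went from 22.8 to 28.7 (median 24.3) to 3.55 to 6.06 (median 4.7) FPKM in the chemoresistant line, against 0.946 to 1.56 (median 1.25) and 1.14 to 2.28 (median 1.58) in the parental line. Of 13 MHC class I genes, all fell in the chemoresistant persisters (median -0.74) and 8 rose and 1 fell in the parental ones (median 0.20, or 0.06 after that scaling). These counts are to be read against the same shares of all tested genes. TAP1, the peptide transporter, went from 31.5 to 35.4 (median 34.1) to 12.2 to 14.4 (median 13.3) FPKM in the chemoresistant line. In the parental line TAP1 measured 5.73 to 6.26 (median 6.17) and 6.32 to 9.05 (median 6.94), apart by a narrow margin. Its difference was -1.5 ± 0.09 (adjusted p = 3.51e-13).

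Chemoresistant-only rises were few. The 18 genes held 12 protein-coding genes, among them SPRR2D, SPRR2F and SPRR3 (small proline-rich proteins of the cornified envelope), GPAT3 (an acyltransferase of triglyceride synthesis), NR0B1 (the orphan nuclear receptor DAX-1), ANXA1, MMP13, PTHLH and DUSP5, with 1 lincRNA and 5 loci outside GENCODE. SPRR2D measured 24.7 to 32.1 FPKM (median 27) in chemoresistant cells and 68.2 to 145 (median 89.9) in their persisters, and 2.11 to 3.46 (median 2.98) and 1.27 to 3.5 (median 2.07) in the parental groups, which overlapped. Its difference was 2.02 ± 0.24 (adjusted p = 8.46e-08). Without parental-DTP libraries 5 and 6 its parental change was -0.51 (adjusted p = 0.0071), which placed it among the opposite changes. SPRR2 genes resemble each other, so reads may be split between them. GPAT3 rose from 4.31 to 5.01 (median 4.7) to 16.7 to 20.1 (median 18.2) FPKM in the chemoresistant line and from 6.3 to 6.89 (median 6.51) to 7.33 to 9.02 (median 8.27) in the parental line. It did not overlap in either line, and the difference was 1.48 ± 0.07 (adjusted p = 2.37e-14).

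NR0B1 went from 2.27 to 3.76 (median 2.71) to 6.54 to 11.5 (median 7.8) FPKM in the chemoresistant line, and from 0.991 to 1.67 (median 1.27) to 0.518 to 0.973 (median 0.672) in the parental line. The groups were apart in both lines, in opposite directions, and the difference was 1.73 ± 0.15 (adjusted p = 6.18e-10). Over the whole squamous differentiation list of 27 tested genes, 12 rose and 3 fell in the chemoresistant line (median 0.28), against 20.5% and 27.4% of all tested genes. In the parental line 7 rose and 8 fell, with a median of 0.07 that turned to -0.04 after relative log expression scaling. The difference was higher at 11 and lower at 5, against 20.5% and 43.4% of all tested genes. Its median of 0.09 became 0.22 after relative log expression scaling. KRT16, a keratin of activated keratinocytes, rose from 16.4 to 21.5 (median 17.9) to 37.1 to 72.7 (median 48.0) in the chemoresistant line, and measured 2.5 to 3.51 (median 3.13) and 1.44 to 2.78 (median 1.74) in the parental line. The parental groups overlapped, and without parental-DTP libraries 5 and 6 they did not, at 1.44 to 1.92 in the remaining persisters. Its difference was 1.89 ± 0.17 (adjusted p = 8.26e-10).

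On the deposited scale the larger set of opposite changes, 192 genes, rose in parental and fell in chemoresistant persisters. After relative log expression scaling this set held 134 genes and the reverse set 140. With the GC trend removed they held 126 and 132. SOCS1, the feedback inhibitor of JAK kinases, went from 1.27 to 1.82 (median 1.61) up to 6.12 to 9.44 (median 7.66) FPKM in the parental line and from 8.82 to 10.2 (median 9.31) down to 3.3 to 5.57 (median 3.66) in the chemoresistant line. The changes were 1.75 and -1.06, with a difference of -2.81 ± 0.14 (adjusted p = 1.9e-14). LAMP3, a lysosomal membrane protein, went from 7.24 to 7.95 (median 7.68) up to 19.4 to 23.9 (median 21.8) and from 38.6 to 48.0 (median 43.3) down to 13.9 to 19.9 (median 15.8). For both genes, no persister group overlapped the cells it came from. The differences were -2.77 ± 0.1 for LAMP3, -2.46 ± 0.1 for RAB26, a small GTPase of secretory vesicles, and -2.38 ± 0.1 for TNFAIP2, a TNF-induced gene (adjusted p = 3.65e-17, 1.13e-15 and 4.24e-16).

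The reverse pattern was led by FOSL1, an AP-1 transcription factor. It fell from 27.6 to 36.1 (median 34.9) to 12.5 to 13.7 (median 13.2) FPKM in the parental line and rose from 4.09 to 4.94 (median 4.58) to 9.61 to 12.1 (median 11.2) in the chemoresistant line. The cells of the 2 lines were far apart, and their persisters adjoined each other without overlap. The changes were -1.25 and 1.14, with a difference of 2.39 ± 0.09 (adjusted p = 2.23e-16). PHLDA2, an imprinted growth-restraining gene, went from 17.8 to 25.6 (median 22.4) down to 6.84 to 10.0 (median 8.22) and from 11.2 to 14.3 (median 13.2) up to 21.4 to 35.6 (median 25.2), so its order between the lines was reversed. LYAR, a nucleolar protein, and ANXA3, an annexin, differed by 2.04 ± 0.14 and 1.92 ± 0.1 (adjusted p = 4.66e-12 and 4.74e-14). None of these 4 genes overlapped between a line and its persisters.

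The genes of the series title did not share one pattern. GCLC, the catalytic subunit of glutamate-cysteine ligase and the first enzyme of glutathione synthesis, rose from 5.7 to 6.54 (median 5.99) to 9.03 to 12.2 (median 11) FPKM in the parental line and from 36.8 to 45.4 (median 41.5) to 65.9 to 75 (median 71.3) in the chemoresistant line. None of the 4 groups overlapped. The changes were 0.73 ± 0.06 and 0.76 ± 0.06, and the difference of 0.03 ± 0.09 was not called (adjusted p = 0.76, interval -0.15 to 0.22). After relative log expression scaling the difference was 0.22 with adjusted p = 0.018. GCLM, the modifier subunit, went from 7.84 to 11.1 (median 8.32) to 13.4 to 19.0 (median 14.8) and from 8.25 to 12.6 (median 10.3) to 19.3 to 24.9 (median 23.4). Both rises were without overlap, and their difference of 0.35 ± 0.14 (adjusted p = 0.0358) lost its call when any of 12 libraries was left out.

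NFE2L2, which encodes NRF2, went from 13.8 to 18 (median 15.1) to 27.7 to 37.2 (median 35.5) FPKM in the parental line and from 31.1 to 42.2 (median 38.1) to 40.5 to 47.1 (median 44.3) in the chemoresistant line, where the groups overlapped. The difference was -0.83 ± 0.11 (adjusted p = 4.85e-07). KEAP1, the adaptor that marks NRF2 for degradation, fell in the parental line from 34.2 to 45.0 (median 41.7) to 25 to 35.6 (median 26.1), with 1 library, number 6, inside the parental range. The low end of that range was parental libraries 5 and 6, at 34.3 and 34.2. The other parental libraries lay at 40.7 to 45.0, above every parental persister library. In the chemoresistant line it measured 46.9 to 63.5 (median 51.8) and 53.6 to 65.9 (median 57.1), a change of 0.13 (adjusted p = 0.25), and the difference was 0.65 ± 0.13 (adjusted p = 9.99e-05). FDX1, the ferredoxin whose loss protects cells from copper death, differed by -0.13 ± 0.09 (adjusted p = 0.227, interval -0.33 to 0.06). SLC31A1, the copper importer, differed by -0.3 ± 0.09 (adjusted p = 0.00422) on the deposited scale and by -0.11 after relative log expression scaling (adjusted p = 0.185). GFRAL, the receptor of GDF15, was not tested: its recovered reads over 6 libraries were 0, 2, 5 and 2 in parental cells, parental persisters, chemoresistant cells and chemoresistant persisters.

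NRF2 targets rose more often than they fell in both lines, but in the parental line so did all tested genes. Of 37 tested, 22 rose and 7 fell in the parental line (median 0.39), against 45.8% and 19.7% of all tested genes. Relative log expression scaling lowered that parental median to 0.26. Once libraries 5 and 6 of the parental persisters were dropped, 18 targets were up and 8 down, with a parental median of 0.26. In the chemoresistant line 27 rose and 4 fell (median 0.35), against 20.5% and 27.4% of all tested genes. The difference was higher at 17 and lower at 9 (median 0.11 against -0.17 over all genes), and after relative log expression scaling the median was 0.30. In kind, 14 were shared, 10 opposite, 6 chemoresistant-only and 3 parental-only. GSR, glutathione reductase, fell from 37.7 to 43.9 (median 40.2) to 29.3 to 31.7 (median 30.7) FPKM in the parental line and rose from 19.9 to 21.7 (median 20.8) to 30.6 to 34.7 (median 34.2) in the chemoresistant line. The cells lay apart and the persisters overlapped, and the difference was 1.05 ± 0.05 (adjusted p = 4.19e-14). SLC7A11, the cystine importer, rose from 0.998 to 1.53 (median 1.43) to 9.45 to 11.8 (median 10.1) in the parental line, and from 11.9 to 17.7 (median 15.9) to 13.8 to 30.4 (median 27.3) in the chemoresistant line, where the ranges overlapped. The overlap came from chemoresistant-DTP library 2 at 13.8, and the other 5 persister libraries, at 22.9 to 30.4, lay above every chemoresistant library. The difference was -1.6 ± 0.19 (adjusted p = 1.06e-07), and -1.44 ± 0.13 (adjusted p = 1.27e-09) without that library. Of 27 genes of glutathione synthesis and use, 18 rose and 3 fell in the parental line (median 0.41). In the chemoresistant line 12 rose and 5 fell (median 0.15). The difference was lower at 15 and higher at 4 (median -0.25), against 43.4% and 20.5% of all tested genes. After relative log expression scaling the parental median was 0.23 and that of the difference -0.11.

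Among the EGF receptor ligands and ERK feedback genes, 17 of 23 rose and 2 fell in the parental persisters (median 0.36), and 15 rose and 3 fell in the chemoresistant ones (median 0.32). The counts of each list here are to be read against all tested genes. Of these, 45.8% rose and 19.7% fell in the parental line, and 20.5% rose and 27.4% fell in the chemoresistant line. The difference was lower at 12 and higher at 7 (median -0.34), against 43.4% and 20.5% of all tested genes. Shared changes were 9, against 10.5% of all tested genes. Relative log expression scaling gave a parental median of 0.20 and a median difference of -0.15. Cholesterol and fatty acid synthesis fell in both lines: 18 of 33 fell and 6 rose in the parental line (median -0.33), 20 fell and none rose in the chemoresistant line (median -0.27), and 12 changes were shared. The parental median was -0.5 after that scaling. SREBF1, a master transcription factor of lipid synthesis, measured 18.4 to 21 (median 19.5) and 18.3 to 22.7 (median 19.6) FPKM in the parental groups and fell from 57.3 to 70.1 (median 64.0) to 30.9 to 33.5 (median 32.9) in the chemoresistant line. Metallothioneins and zinc genes rose at 4 of 6 in each line, with medians of 0.36 and 0.65, of which the parental one was 0.18 after that scaling. MT2A, the main copper and zinc binding metallothionein, rose from 189 to 221 (median 194) to 234 to 289 (median 268) in the parental line and from 259 to 314 (median 298) to 484 to 857 (median 552) in the chemoresistant line, a difference of 0.59 ± 0.13 (adjusted p = 0.000555).

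Copper handling genes were split. In the parental line 6 of 20 rose and 4 fell, against 45.8% and 19.7% of all tested genes. In the chemoresistant line 6 rose and 2 fell, against 20.5% and 27.4%. The median difference of -0.07 turned to 0.10 after relative log expression scaling. Of 25 hypoxia and glycolysis genes 13 had a lower and 8 a higher difference, against 43.4% and 20.5% of all tested genes. Their median difference of -0.18 became -0.06 after relative log expression scaling, and their parental median of 0.13 turned to -0.05. Cytosolic ribosomal protein genes and mitochondrial mRNAs had median differences of -0.05 and -0.12, which turned to 0.16 and 0.09 after that scaling. Of 17 mesenchymal genes the difference was higher at 3 and lower at 5, against 20.5% and 43.4% of all tested genes. Their median difference of -0.08 turned to 0.09 once the GC trend was removed. Of 12 replication-dependent histone genes, 9 rose in the parental line and the difference was lower at 9 (median -0.51), against 45.8% and 43.4% of all tested genes. All 4 tested nuclear-retained RNAs rose in the parental line (median 0.63), NEAT1 most, and the difference was lower at 3. Whether the shares of polyadenylated or nuclear RNA in the libraries moved with the groups was not tested.

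**Figure D4:**
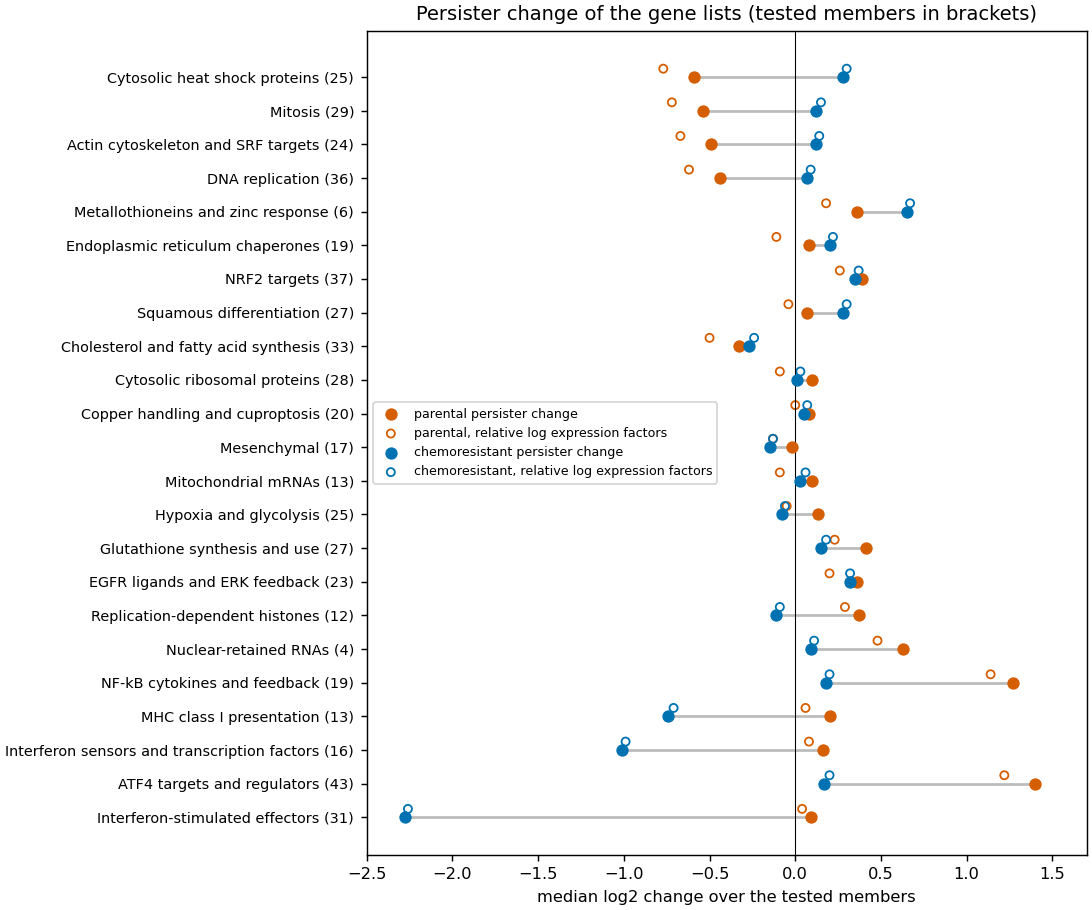
Each row is 1 gene list with its number of tested members, and the x axis is the median log2 change over those members in parental (orange) and chemoresistant (blue) persisters, with open circles after relative log expression factors. The widest gaps are those of interferon-stimulated effectors, at 0.09 and -2.28, and ATF4 genes, at 1.4 and 0.17.

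The persisters of the lines resembled each other more than the lines did. The level of 1831 of the 13729 genes (13.3%) differed by 2-fold or more between chemoresistant and parental cells, and that of 724 (5.27%) between their persisters, with no test applied. The median absolute gap was 0.41 between the lines and 0.24 between the persisters. After relative log expression scaling the counts were 1780 and 711. The difference of persister change equals the gap between the persisters minus the gap between the lines, so within a class these gaps describe where a change started and ended and are no separate evidence. Of the 99 chemoresistant-only falls, 87 were 2-fold apart between the lines and 35 between the persisters, and the median gap went from 2.21 to 0.62. Of the 247 parental-only rises, 163 were apart before and 29 after, with median gaps of 1.22 and -0.2. The 62 parental-only falls went from 51 to 10, with gaps of -1.46 and 0.04. The 192 opposite changes with a parental rise went from 131 to 18 (1.24 and -0.27), and the 83 with a parental fall from 59 to 17 (-1.12 and 0.22). Of the chemoresistant-only rises, 9 of 18 were apart on either side. Their median gap went from -0.73 to 0.46 and their median absolute gap from 1.06 to 0.95. The shared rises went from 10 to 7 of 15.

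**Figure D5:**
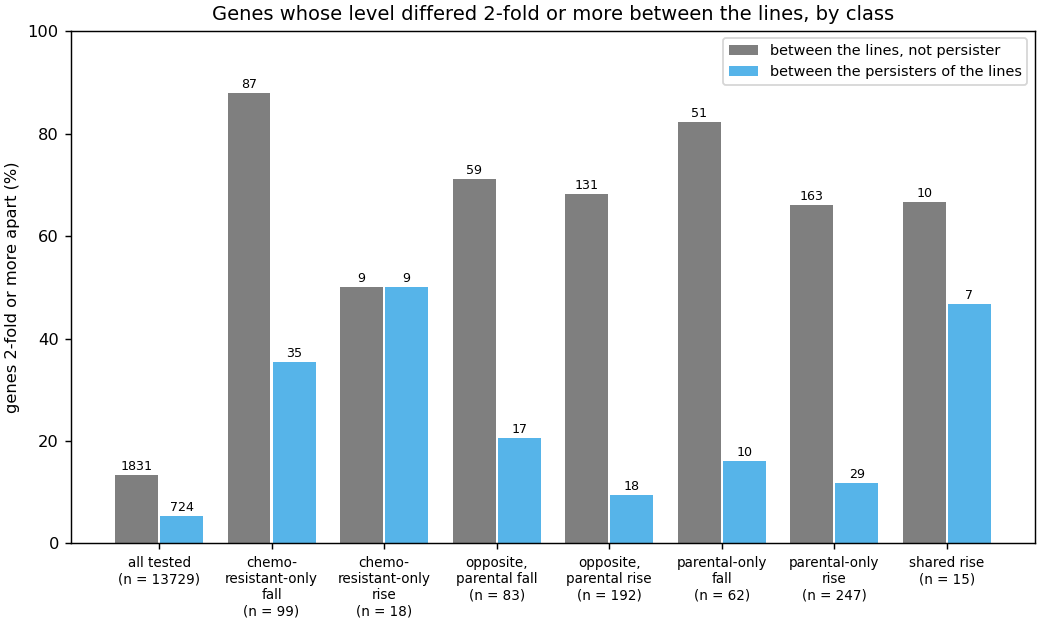
Bars give the percent of genes (y axis) whose level differed by 2-fold or more between the lines themselves (grey) and between their persisters (blue), for all tested genes and each 2-fold class. Numbers on the bars are genes. All bars but that of the chemoresistant-only rises are lower among the persisters.

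Features that the classes were not chosen on also varied. Of all tested genes 79.2% were protein coding, against 91.9% of the chemoresistant-only falls and 93.3% of the shared rises. Among parental-only rises the share was 56.7% and among opposite changes with a parental rise 51.0%. Long noncoding RNAs made up 27.1% and 24% of those classes and 8.08% of all tested genes. Loci outside GENCODE made up 14.1% of the opposite changes with a parental rise and 4.08% of all. The median GC content was 48.7% over all tested genes, 55.5% over parental-only falls and 53.3% over opposite changes with a parental rise. The deviation of single libraries from their group followed GC content with Spearman rho of -0.64 to 0.655 across genes, and its part in these shares was not tested.

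The promoter motifs shown above, and others, were counted on both strands in windows of 300 bases, 250 before and 50 after the start site. The count covered the 9226 tested genes with a RefSeq promoter. The interferon-stimulated core was present in 33 of 65 chemoresistant-only falls (50.8%), against 2.73% of all tested genes and 3.65% of all 27305 promoters of the table. It was present in 7 of 83 opposite changes with a parental rise (8.43%) and 4 of 141 parental-only rises (2.84%). The amino acid response element core, searched as TGATG and AA spaced by 1 base, to which ATF4 and its partners bind, was in 13 of 141 parental-only rises (9.22%) and in 1.67% of tested genes and 3.67% of all promoters. It was absent from the windows of ADM2 and TRIB3. The heat shock element was in 2 of 39 parental-only falls (5.13%), HSPA8 and DNAJA1, and in 0.271% of tested genes and 0.487% of all promoters. The TATA box was in 6 of 12 shared rises (50%) and 4 of 7 chemoresistant-only rises (57.1%), against 5.45% of tested genes and 12% of all promoters. Matches of these 4 motifs overlapped each other in 1 tested promoter, between the interferon and the amino acid cores. These shares are descriptions of letters in a window and carry no test.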

How the data were processed

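RNA-seq was done on 24 libraries of KYSE450 cells in 4 groups of 6, taken from the labels. The authors deposited FPKM values for 61251 genes, per the file headers. The genome build was GRCh38, per the submitters' processing notes; not given in the sources used here were aligner, counter, annotation release and strandedness. Genes with a mean of 1 FPKM or more in any group were tested on log2(FPKM + 1) with limma 3.58.1 (R 4.3.3, trend, 4 group means), with p-values adjusted over 13729 genes; the scale assumes that total RNA composition is comparable. The count models planned were not used because the deposited values are FPKM. A voom fit of recovered reads was run as an alternative only. Recovered reads were whole for 41099 of 41101 genes above 0 (99.995%, within 0.02 reads or a relative 5e-08). GENCODE 29 held 58337 of the IDs (95.24%) and gave positions and gene types. Named genes were the 8 of the series title, 4 protein-coding genes with at least 5 FPKM per 2-fold class and direction, and up to 4 members per list with the largest difference. Members and lists were chosen with earlier results of these data known. The model was also run on simulated counts. These held no GC trend, no shift between groups and no outlying library, so that run cannot speak to those features of the data. Alternatives changed the scaling, pseudocount, filter, GC trend, replicate block and libraries.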

Additional observations from a re-analysis of the deposited data

Results flagged for a closer look

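The persister change differed between the lines at 8764 genes, and by 2-fold or more at 1241 genes, by the test of the difference itself. These counts are those of the comparison described above.

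Single libraries lay far from the other 5 of their group at 9 of 136 gene and group pairs examined (Dixon's test at 95%, which chance passes in about 1 in 20 groups). In parental-DTP library 6, NFE2L2 was low at 27.7 FPKM against 34 to 37.2, and KEAP1 was high at 35.6 against 25 to 28.4. In parental-DTP library 5, SLC31A1 was high at 18.7 against 14.5 to 15.8, and DNAJA1 was high at 48.7 against 34.9 to 39.7. In chemoresistant-DTP library 2, FDX1 was high at 5.8 against 4.43 to 4.92, AREG was high at 61.0 against 44.7 to 50, and DNAJA1 was high at 59.3 against 49.2 to 51.4. In the same library HSPA1B was low at 29 against 34.2 to 36.5, and ABCA13 was low at 6.0 against 13.0 to 15.7. Without library 2 the differences were 2.74 for HSPA1B, -0.44 for AREG and -0.18 for FDX1 (adjusted p = 0.078 for FDX1).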

How the results depend on the processing

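Each value was recomputed under 35 settings. Of 114 named genes, 101 had a value in all 35, and 91 of these kept their direction and call throughout. The other 13 were not tested at 5 FPKM and kept theirs in the other 34. None reversed; AREG, EEF2, GCLC, GCLM, MT-ND4L, MT1F, MT1X, RPS14, RPS18 and SLC31A1 changed a call. The cause was not tested for any change below. A pseudocount of 0.1 gave 2719 differences of 2-fold, 33 shared rises, 2 shared falls, 893 parental-only, 187 chemoresistant-only and 850 opposite genes, with 3399 genes apart between the lines and 1532 between persisters. The voom fit of recovered reads, chosen after seeing the data, gave 2614, 32, 3, 804, 205, 819, 3464 and 1646 in that order. Of any size, no filter gave 5003 parental-only and 2361 chemoresistant-only genes. A filter of 5 FPKM, which tests fewer genes, gave 4877 differences, 760 of 2-fold, 175 opposite at 2-fold, 1785 opposite, 1730 parental-only and 789 chemoresistant-only of any size, and 1164 apart between the lines. Relative log expression scaling moved 20 of 26 list medians by more than the spread between replicates and reversed 3. Median differences that reversed were those of mesenchymal genes (0.09 without the GC trend, with or without the replicate block, and 0.09 with voom), copper handling (0.10 by relative log expression, 0.10 at 5 FPKM, 0.08 without the GC trend, 0.13 with voom), ribosomal proteins (0.16, 0.10 without the GC trend, 0.16 with voom) and mitochondrial mRNAs (0.09, 0.03 without the GC trend, 0.09 with voom). Leaving out 1 library at a time gave 8531 to 9218 differences, the most without chemoresistant-DTP library 2, and 1181 to 1272 of 2-fold. The ranges were 13 to 16 shared rises, 0 to 0 shared falls, 293 to 331 parental-only, 115 to 122 chemoresistant-only and 261 to 293 opposite genes at 2-fold. Of any size they were 1270 to 1828 shared, 3062 to 3515 opposite, 3157 to 3537 parental-only and 1239 to 1436 chemoresistant-only, with 1812 to 1847 genes apart between the lines and 703 to 782 between persisters. The replicate block gave 8819 differences. No pairing by number was seen: 36 same-number pairs correlated at -0.385 to 0.403 (median 0.0302), and 3 of 24 libraries correlated best with their own number. The GC trends of the libraries were not removed first, so this check cannot exclude a pairing. The planned count models were not run, since the deposited values are FPKM. The voom fit of recovered reads was the count-based setting.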

Other observations

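Among the 83 genes that fell in parental and rose in chemoresistant persisters were proteins of the nucleolus and of ribosome assembly. The 3 named here were picked after their values were seen and stand for no list fixed for this comparison. NCL, nucleolin, measured 269 ± 7.04 FPKM (SD, n = 6) in parental cells and 128 ± 10.4 in their persisters, and went from 87.9 ± 3.69 up to 170 ± 2.23 in the chemoresistant line. Its difference was 2.02 (limma, adjusted p = 4.54e-18). RRP12, a ribosome assembly factor, went from 20.4 ± 1.08 to 11.7 ± 0.736 and from 8.42 ± 0.503 to 21.7 ± 1.17, a difference of 2.01. TCOF1, the nucleolar protein treacle, went from 54.9 ± 0.882 to 27.8 ± 1.4 and from 22.7 ± 1.53 to 41.9 ± 5.45, a difference of 1.8.

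DDB2, a damage recognition protein, also crossed over. It rose from 8.91 to 9.43 FPKM (median 9.27) to 14 to 16.3 (median 15) in the parental line and fell from 21.2 to 23.3 (median 22.7) to 12.5 to 14.5 (median 13.7) in the chemoresistant line, without overlap in either. The difference was -1.31 ± 0.05 (limma, adjusted p = 8.4e-16). VEGFA, the vascular growth factor, rose in both lines, from 3.59 to 4.13 (median 3.84) to 17.8 to 20 (median 19.3) and from 24.4 to 25.9 (median 25.4) to 29.6 to 34.7 (median 31.6), a difference of -1.73 ± 0.05.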
